A study of Mus musculus with 36 samples.

Results

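The 10 genes described here are the insulin-like growth factors Igf1 and Igf2, their receptors Igf1r and Igf2r, and the binding proteins Igfbp2 to Igfbp7. They were taken by gene symbol from the table of read counts, where they are 10 of 55487 gene rows, and all 10 passed the filter on low counts. The table holds RNA-seq of 36 libraries of MEFs, primary fibroblast cultures grown from mid-gestation mouse embryos after removal of head and organs, which carried mutations of the glucocorticoid receptor (GR) and received either dexamethasone (Dex), a synthetic glucocorticoid, at 1 µM or solvent for 5 h. Each of the 12 groups had 3 libraries. Run 1 held GRwt/wt, GRD/D, GRD+L/D+L and GRko/ko cells and run 2 held GRwt/wt and GRL/L cells, each with vehicle and with Dex. D is an alanine-to-threonine change in the dimer interface of the DNA-binding domain, L is an isoleucine-to-alanine change in the ligand-binding domain, D+L carries both in one protein, and ko lacks a functional receptor. FVB/NJ is the labelled strain throughout, but the methods of the study place the mice with the null allele on 129/SvJ, so strain and genotype cannot be told apart for GRko/ko. The study describes 3 cultures per genotype, each from a different mouse, and the labels name neither the mouse nor the culture of a library. All libraries of a genotype and run showed the same pattern of sex-linked RNAs, and same-numbered vehicle and Dex libraries did not deviate together, so these data do not show that the 3 libraries of a group came from 3 mice; if they did not, the p-values cover technical spread only.

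IGF1 and IGF2 are small secreted hormones that resemble insulin and drive growth and survival of connective tissue cells. They act through IGF1R, a tyrosine kinase that signals through the IRS docking proteins to PI3 kinase, whereas IGF2R has no kinase and carries IGF2 and mannose-6-phosphate-tagged enzymes to the lysosome. The binding proteins hold most IGF outside the cell, and proteases of the pappalysin and HTRA families release it by cutting them, so fibroblasts set the IGF supply of a tissue through ligands, binding proteins and proteases together.

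Library totals ranged from 15280166 to 19102035 counts in run 1 and from 21532686 to 28662608 in run 2. The members had between 47 counts, for Igf2 in a GRD/D vehicle library, and 17969 counts, for Igfbp5 in a GRL/L vehicle library. Nr3c1, the gene of the receptor, averaged 70.2 CPM (counts scaled to the TMM-adjusted size of each library) in GRwt/wt vehicle cells of run 1 and 16.6 CPM in GRko/ko vehicle cells. One library stood apart from its group: the counts of replicate 4 of GRwt/wt with Dex in run 2 differed from those of replicates 5 and 6 by 17.9 and 21.4 times sampling noise (chi-square per degree of freedom over genes), while replicates 5 and 6 differed by 1.83 times. Replicates 2 and 3 of GRD/D vehicle differed by 29.4 times. Where a call on any of the 10 genes passed and rests on these libraries, its value without them or its range with libraries left out is also given. Most values that did not pass are given with all libraries only, as are those of other genes. Xist, the RNA of the inactive X chromosome, was at 165.0 to 305.3 CPM in the GRwt/wt libraries of run 1 and in GRD/D, and at no more than 14.1 CPM in all others, whereas the sum of 4 genes of the Y chromosome was at least 135.6 CPM in these others and at most 2.08 CPM in the former. The GRwt/wt cells of run 1 thus differ from GRD+L/D+L, GRko/ko and the GRwt/wt cells of run 2 in sex as well, and sex cannot be told apart from genotype or run there. All 10 fibroblast markers were tested and their summed level lay between 21180 and 37300 CPM. The summed level of 20 macrophage genes in vehicle cells was 262.5 to 456.5 CPM in GRwt/wt of run 1, 915.8 to 979.6 CPM in GRD/D, 47.6 to 59.1 CPM in GRD+L/D+L, 3895 to 4273 CPM in GRko/ko, 612.3 to 650.9 CPM in GRwt/wt of run 2 and 1105 to 1312 CPM in GRL/L. None of the 20 was at 0 in all libraries of a group. In these bulk cultures, fewer cells of a type and less RNA per cell cannot be told apart.

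Levels of different genes are compared here as CPM per kilobase of exon. Igfbp7, which encodes a secreted relative of the binding proteins with weak affinity for IGFs, stood first in all 6 vehicle groups, from 256.6 ± 11.6 (SD, n = 3) in GRL/L to 792.6 ± 25.8 (SD, n = 3) in GRD+L/D+L. In the GRwt/wt cells of run 1 it was followed by Igf2r at 87.3, Igfbp5 at 50.8, Igfbp6 at 34.2 and Igf1r at 12.6. Igfbp2, Igfbp4 and Igfbp3 followed at 8.64, 7.48 and 6.24 CPM per kilobase and overlapped from one to the next. The ligands were last, with Igf1 at 1.24 and Igf2 at 0.743. Of the 5723 exon bases of Igf2, 3596 are shared with the gene Gm49394 on the same strand. How reads there were counted is not given, so the levels of Igf2 may be too low. In the GRwt/wt cells of run 2 the order differed: Igfbp3 stood in the second place at 155.1 CPM per kilobase, followed by Igfbp4 at 67.1 and Igfbp5 at 58.1, and Igf1 at 9.66 was above Igf1r at 5.65. No neighbours in that order overlapped.

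**Figure D1:**
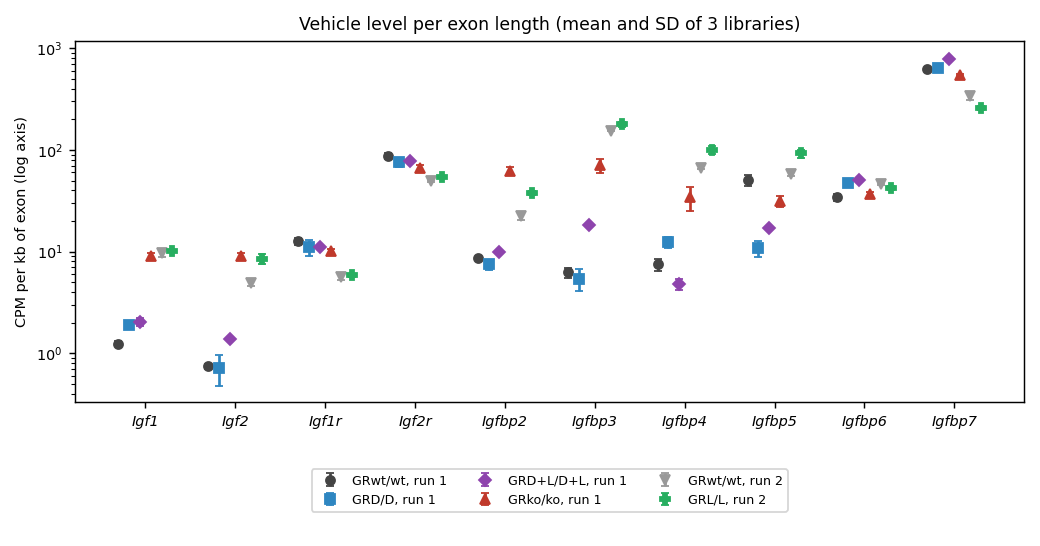
Level of the 10 genes in vehicle cells, as CPM per kilobase of exon on a log axis; points are means and bars SD of 3 libraries, and colours and shapes mark the 6 combinations of genotype and run. Igfbp7 lies highest in each, while Igf1, Igf2, Igfbp2, Igfbp3 and Igfbp4 lie higher in GRko/ko and in both genotypes of run 2 than in the other cells of run 1.

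The wild-type cells of the 2 runs did not start from the same levels. Mean Igfbp3 in vehicle GRwt/wt cells was 19.5 CPM in run 1 and 485.6 CPM in run 2, a ratio of 24.9. Igfbp4 was 8.96 times, Igf1 7.77 times, Igf2 6.63 times and Igfbp2 2.58 times as high in run 2. Igf1r, Igfbp7 and Igf2r were 2.24, 1.84 and 1.754 times as high in run 1. The libraries of the 2 runs overlapped for Igfbp5 alone among the 10 genes. Marker sums of other cells also differed between these 2 groups. The skeletal muscle sum was 677.0 to 782.2 CPM in run 1 and 29.9 to 31.0 in run 2. The neural sum was 447.6 to 484.5 and 149.2 to 151.9, the cartilage sum 31.2 to 34.7 and 72.1 to 87.5, and macrophages were as given before. Some listed genes had no counts in any library of a group, so the muscle, neural and cartilage sums rest on the others. In run 1 the genes without counts were Myod1, Myf5 and Myf6 of muscle, Neurod1 and Dcx of the neural list, and Matn1 and Cnmd of cartilage. In run 2 they were Myf6 of muscle, Elavl3 and Neurod1 of the neural list, and Matn1 of cartilage. The sums alone do not show more or fewer cells of a type, and the part of such cells in the differences was not tested. Run, cultures and sex cannot be told apart in these differences, which were not tested, and genotypes are therefore compared within a run.

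**Figure D2:**
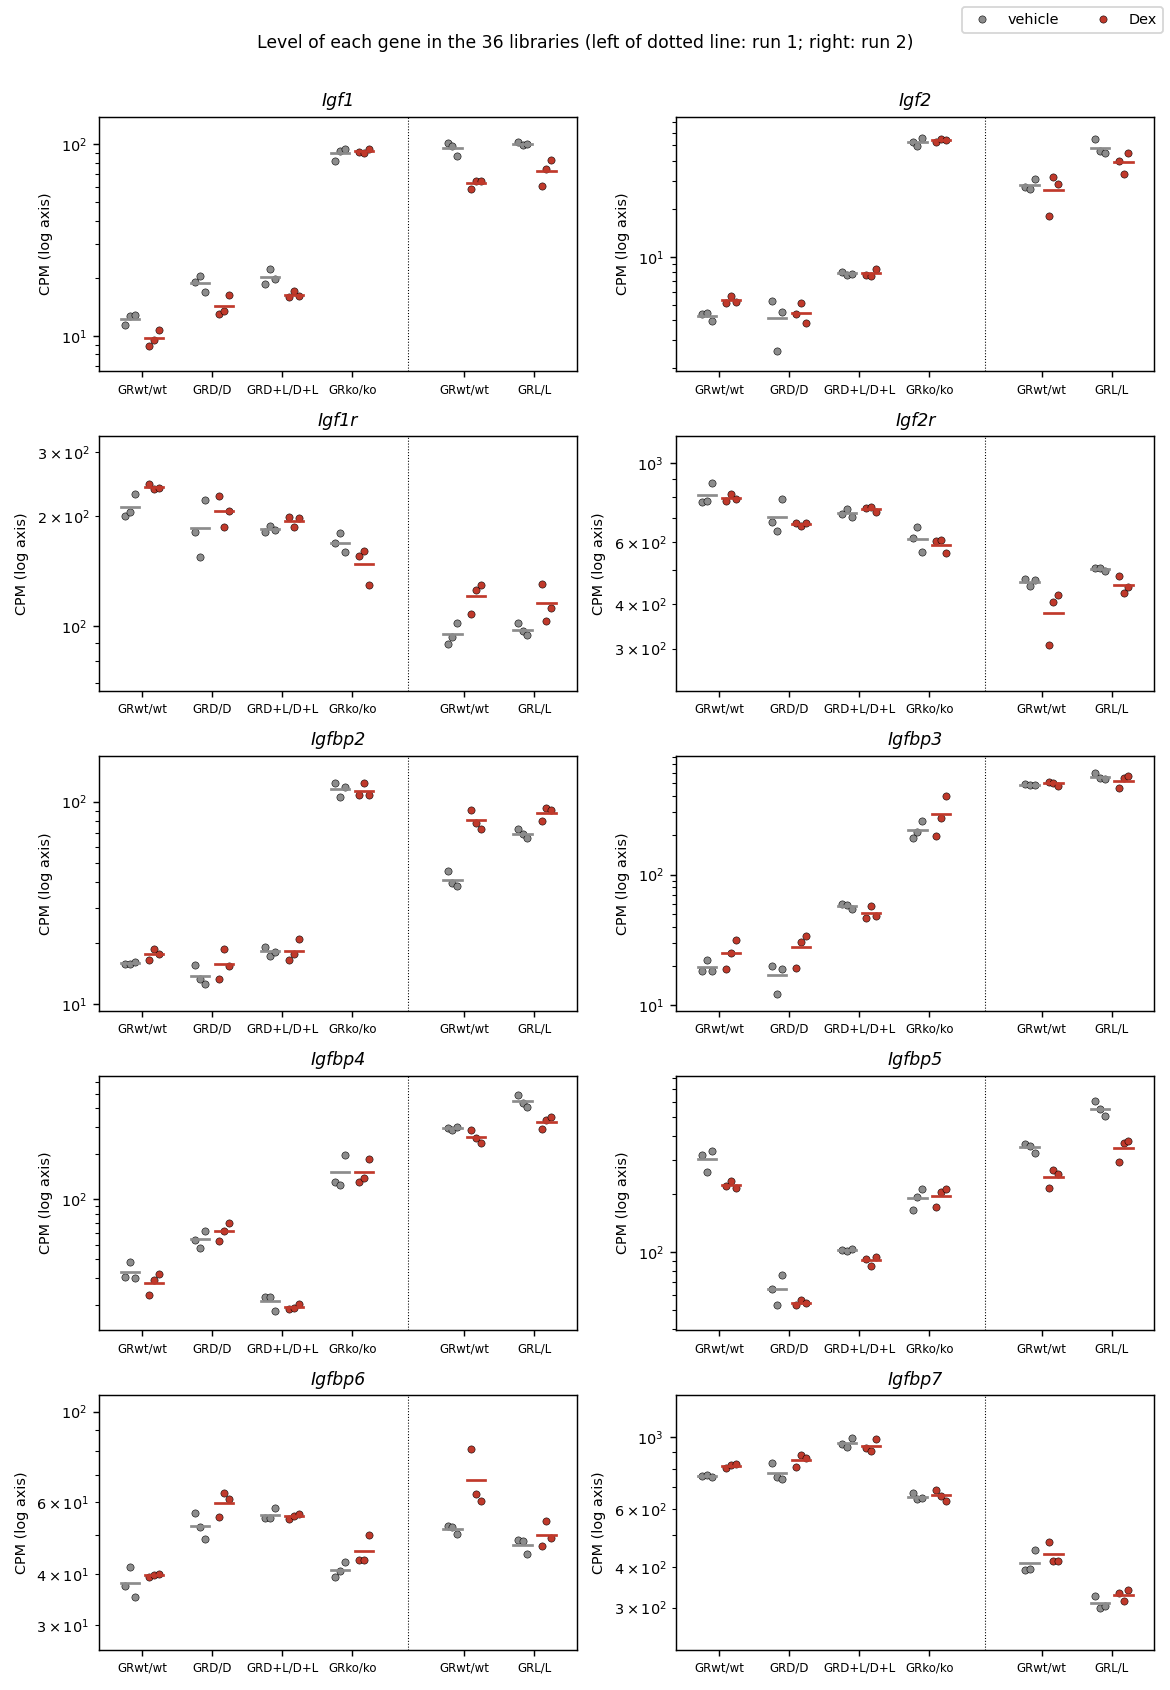
CPM of each of the 10 genes in every library, on a log axis, with grey points for vehicle, red points for Dex and lines for group means of 3 libraries; run 1 lies left of the dotted line and run 2 right of it. The step between GRko/ko and the other cells of run 1, and between the runs of GRwt/wt, exceeds the distance between vehicle and Dex for Igf1, Igf2, Igfbp3 and Igfbp4.

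The first question was how Dex changed these genes in cells with the different receptors. In GRwt/wt of run 1, 1 of the 10 genes passed an adjusted p threshold of 0.05 (edgeR's quasi-likelihood test, Benjamini-Hochberg over 15489 genes), and it was lower, against 7.74% of all genes tested that were higher and 6.20% that were lower. In GRwt/wt of run 2, 3 were higher and 3 were lower, against 14.9% and 16.7% of all genes. In GRL/L, 1 was higher and 3 were lower, against 8.79% and 10.4%. In GRD/D, 1 was higher and 1 lower, against 5.63% and 6.24%. In GRD+L/D+L none passed, against 3.08% higher and 1.92% lower of all genes, and 1 had an unadjusted p under 0.05 in edgeR; DESeq2 also called 0. In GRko/ko none passed, against 0.00% and 0.00% of all genes, 2 had an unadjusted p under 0.05 in edgeR, and DESeq2 called 0 of the 10. No member reached an absolute log2 fold change of 1 with Dex, the limit the study used for its calls. The median log2 fold change of the 10 genes lay between -0.12 in GRL/L and 0.14 in GRD/D, and that of all genes tested between -0.01 and 0.00 in all 6.

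**Figure D3:**
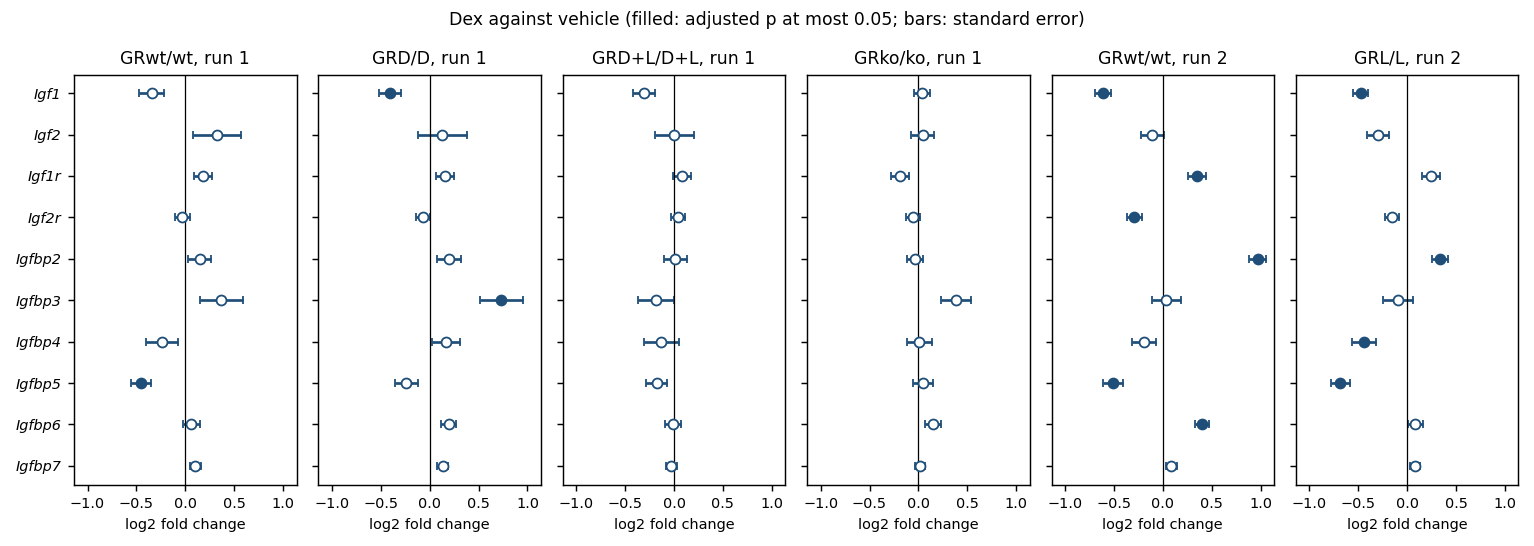
Log2 fold change of each gene with Dex against vehicle in the 6 combinations of genotype and run, with standard errors; filled points passed the threshold of 0.05 after adjustment. Igf1 and Igfbp5 lie left of 0 in both runs of GRwt/wt, in GRD/D, in GRD+L/D+L and in GRL/L, and Igfbp2 lies farthest right in GRwt/wt of run 2.

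The 3 genes on which the Dex results turn are Igf1, Igfbp2 and Igfbp5, and the bases before their transcription starts are shown because the receptor binds DNA at paired copies of a half-site. Igfbp2 (chr1:72824503-72852474, + strand, mm10) and Igfbp5 (chr1:72857932-72874884, - strand) are protein-coding neighbours that point toward each other, and Igf1 lies at chr10:87858265-87937042 on the + strand. The stretches end just before a start in RefSeq's annotation of GRCm38.p6, the assembly of mm10, and lie at chr1:72824230-72824479 (+ strand), chr1:72874866-72875115 (- strand) and chr10:87860861-87861110 (+ strand). Capitals mark the half-site AGAACA or its reverse complement TGTTCT.
Igfbp2: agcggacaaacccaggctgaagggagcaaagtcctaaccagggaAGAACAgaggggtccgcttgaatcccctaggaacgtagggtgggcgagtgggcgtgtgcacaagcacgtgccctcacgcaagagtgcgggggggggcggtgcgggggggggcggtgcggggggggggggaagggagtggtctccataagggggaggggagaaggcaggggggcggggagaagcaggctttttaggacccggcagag
Igfbp5: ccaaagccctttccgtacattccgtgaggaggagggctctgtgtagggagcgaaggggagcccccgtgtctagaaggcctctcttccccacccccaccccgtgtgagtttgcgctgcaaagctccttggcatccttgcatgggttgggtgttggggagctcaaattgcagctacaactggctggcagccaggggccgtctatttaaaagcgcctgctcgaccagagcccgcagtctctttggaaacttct
Igf1: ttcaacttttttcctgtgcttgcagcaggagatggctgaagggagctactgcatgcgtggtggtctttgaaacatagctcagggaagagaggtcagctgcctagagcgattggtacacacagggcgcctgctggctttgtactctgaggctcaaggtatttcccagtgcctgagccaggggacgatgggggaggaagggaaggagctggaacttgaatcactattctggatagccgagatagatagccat

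The half-site occurred 206 bases before the start of Igfbp2 and did not occur in the stretches of Igfbp5 and Igf1. Among the 14 windows of 300 bases that RefSeq's starts give for the 10 genes, from 250 bases before to 50 after each start, 2 held a half-site on either strand, 1 of Igfbp2 and 1 of Igf2, against 18.97% of all 32851 windows. None of the 14 held 2 half-sites that face each other with 3 bases between them, which 3 of all windows held. These are matches of letters and say nothing of receptor binding.

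Igf1, the main growth factor ligand, had a lower mean with Dex in each of the 5 comparisons of cells with a receptor, and fell past the threshold in 3 of them. In GRwt/wt of run 2 the vehicle libraries had 86.6, 98.5 and 101.9 CPM and the Dex libraries 58.6, 64.6 and 64.6 CPM. The groups did not overlap, and the log2 fold change was -0.61 (SE 0.08, adjusted p = 5.15e-08), or -0.57 without replicate 4. In GRL/L it went from 98.8, 100.3 and 103.2 CPM to 60.3, 74.2 and 82.7 CPM, again without overlap (log2 fold change -0.48, SE 0.08, adjusted p = 8.18e-06). In GRL/L, 7 of 20 macrophage genes were also lower with Dex and 2 were higher, and their sum was 919.9 to 1170 CPM with Dex; their part in the result was not tested. In GRD/D, Igf1 fell from 17.0, 19.1 and 20.6 CPM to 13.1, 13.5 and 16.4 CPM, which just did not overlap (log2 fold change -0.40, SE 0.11, adjusted p = 0.0152). That call rested on single libraries: without vehicle replicate 2 the log2 fold change was -0.33 (adjusted p = 0.108), without Dex replicate 1 it was -0.34 (adjusted p = 0.0794) and without Dex replicate 2 it was -0.36 (adjusted p = 0.0891), in a range of adjusted p from 0.00717 to 0.108 over all libraries left out in turn. Fitted with the 2 GRD/D groups alone it did not pass either (-0.40, adjusted p = 0.0645, in a range from 0.000255 to 0.0645 over the alternatives).

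Where Igf1 was low, in GRwt/wt of run 1, it was 11.4, 12.7 and 12.8 CPM with vehicle and 8.81, 9.53 and 10.8 CPM with Dex. These groups did not overlap either, but the log2 fold change of -0.35 (SE 0.13) did not pass (adjusted p = 0.0758). It passed in 4 of 8 alternatives, DESeq2 among them, with adjusted p from 9.12e-08 to 0.0843. The 4 include the fit with GRwt/wt of both runs under one Dex term (-0.54), so this range is not that of run 1 alone. GRD+L/D+L had 18.7, 19.8 and 22.3 CPM with vehicle and 16.1, 16.1 and 17.1 CPM with Dex (log2 fold change -0.31, SE 0.11, adjusted p = 0.123), without overlap. This fall passed with no filter and with the 2 groups alone (adjusted p from 0.00578 to 0.154 over the alternatives). In GRko/ko all 6 libraries lay between 82.2 and 95.1 CPM, the groups overlapped, and the log2 fold change was 0.04 (SE 0.08, adjusted p = 0.987). The Dex change of Igf1 did not differ detectably between a mutant and the GRwt/wt cells of its run: the difference of log2 fold changes was -0.06 for GRD/D (2 SE below and above: -0.40 to 0.29), 0.04 for GRD+L/D+L (-0.30 to 0.38), 0.38 for GRko/ko (0.08 to 0.69, adjusted p = 0.125) and 0.13 for GRL/L (-0.08 to 0.35). That of GRko/ko passed in 3 of 7 alternatives, with adjusted p down to 0.000181. The 3 include the fit with GRwt/wt of both runs together. The comparisons within run 1 share the GRwt/wt libraries.

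Igf2, the ligand of fetal growth and an imprinted gene, did not pass with Dex in any of the 6 comparisons in the fit of all groups. Its log2 fold changes ran from -0.29 in GRL/L (SE 0.11, adjusted p = 0.0633) to 0.33 in GRwt/wt of run 1 (SE 0.24, adjusted p = 0.459). Without Dex replicate 3 the fall of Igf2 in GRL/L passed, at -0.40 (adjusted p = 0.0215), as it did with no filter and with the 2 groups alone (lowest adjusted p 0.000229). In GRwt/wt of run 2 the Dex libraries had 18.1, 31.6 and 28.8 CPM in replicates 4, 5 and 6, so that the low value came from the library that stood apart. The exons of Igf2 share 3596 bases with the gene Gm49394 on the same strand and 98 bases with Igf2os on the opposite strand. Gm49394 had 28 counts over all libraries and Igf2os 1553. Reads in the shared bases may not have been counted for Igf2.

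Dex moved the 2 receptors in opposite directions in GRwt/wt of run 2. Igf1r rose from 89.6, 93.1 and 101.9 CPM to 107.8, 125.6 and 129.8 CPM (log2 fold change 0.35, SE 0.09, adjusted p = 0.00287), and the groups did not overlap. Igf2r fell from 451.0, 466.8 and 472.7 CPM to 307.6, 404.7 and 424.9 CPM (log2 fold change -0.29, SE 0.07, adjusted p = 0.00224). The lowest Igf2r value was again that of replicate 4, and without it the log2 fold change was -0.16 (adjusted p = 0.0564, in a range from 0.000208 to 0.0564 over all libraries left out), so the call on Igf2r rested on that library while that on Igf1r did not (0.43 without it). Fitted with the 2 groups alone, Igf2r did not pass (-0.28, adjusted p = 0.0626, in a range from 8.39e-08 to 0.0626 over the alternatives). GRL/L had log2 fold changes of 0.24 for Igf1r (SE 0.09, adjusted p = 0.0622) and -0.15 for Igf2r (SE 0.07, adjusted p = 0.162), and neither differed detectably from GRwt/wt in its Dex change (adjusted p = 0.805 for Igf1r and 0.644 for Igf2r). The rise of Igf1r in GRL/L passed without Dex replicate 2 (0.31, adjusted p = 0.0263). Both receptors also passed in GRL/L with no filter and with the 2 groups alone, with adjusted p down to 0.000477 for Igf1r and 0.00877 for Igf2r. In the 4 genotypes of run 1 neither receptor passed in the fit of all groups. Igf1r passed in GRD/D without vehicle replicate 3 (0.30, adjusted p = 0.0191). In GRwt/wt it passed in 3 of 8 alternatives (adjusted p from 0.00189 to 0.24), which include the fit with both runs under one Dex term. Igf2r passed in GRwt/wt with both runs under one Dex term (adjusted p = 0.0283, in a range up to 1).

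Igfbp2, a binding protein with a preference for IGF2, had the largest Dex change among the 10 genes. In GRwt/wt of run 2 it rose from 38.4, 39.6 and 45.5 CPM to 72.9, 78.8 and 90.4 CPM, 1.96 times the vehicle level (log2 fold change 0.97, SE 0.08, adjusted p = 5.95e-12; 0.88 without replicate 4). In GRL/L it rose from 66.3, 68.9 and 73.4 CPM to 80.3, 90.9 and 92.6 CPM, 1.26 times (log2 fold change 0.34, SE 0.08, adjusted p = 0.00171). The groups overlapped in neither genotype, and the Dex levels of GRL/L overlapped those of GRwt/wt, whereas its vehicle levels lay above them. The smaller rise in GRL/L passed as a difference of log2 fold changes of -0.63 (SE 0.12, adjusted p = 0.000724), against 1.85% of all genes, and was -0.54 without replicate 4 of GRwt/wt with Dex; no other member passed in that fit. Igfbp6 passed without replicate 6 of GRwt/wt with Dex (-0.40, adjusted p = 0.0334) and with no filter on low counts (adjusted p = 0.0306, in a range up to 0.672 over the alternatives). With GRwt/wt of both runs under one Dex term, the difference of Igfbp2 was -0.35 and did not pass (adjusted p = 0.432, the highest of that result's alternatives, which began at 2.55e-10).

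In run 1 the same gene did not respond detectably. GRwt/wt cells had 15.8, 15.9 and 16.2 CPM with vehicle and 16.6, 17.7 and 18.7 CPM with Dex (log2 fold change 0.15, SE 0.12, adjusted p = 0.505), a small step without overlap. The Dex change of Igfbp2 thus differed between the 2 runs of GRwt/wt by 0.82 on the log2 scale (SE 0.14, adjusted p = 0.000123), the one member that passed there, against 7.09% of all genes, and by 0.73 without replicate 4. With 1 library left out, Igfbp6 passed there too without replicate 3 of vehicle in run 1 (0.39) and without replicates 5 (0.39) or 6 (0.42) of Dex in run 2, and Igf2r without the latter (-0.35). Marker genes of the receptor changed more in run 2 as well: Tsc22d3 had log2 fold changes of 1.84 and 3.56 and Fkbp5 of 2.58 and 3.70 in runs 1 and 2. Not every gene did so. Nr3c1 had -0.52 and -0.42, which did not differ detectably (adjusted p = 0.585), and Stc1, described below, changed less in run 2. In GRD/D, GRD+L/D+L and GRko/ko the log2 fold changes of Igfbp2 were 0.20, 0.01 and -0.04, and the groups overlapped in each.

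**Figure D4:**
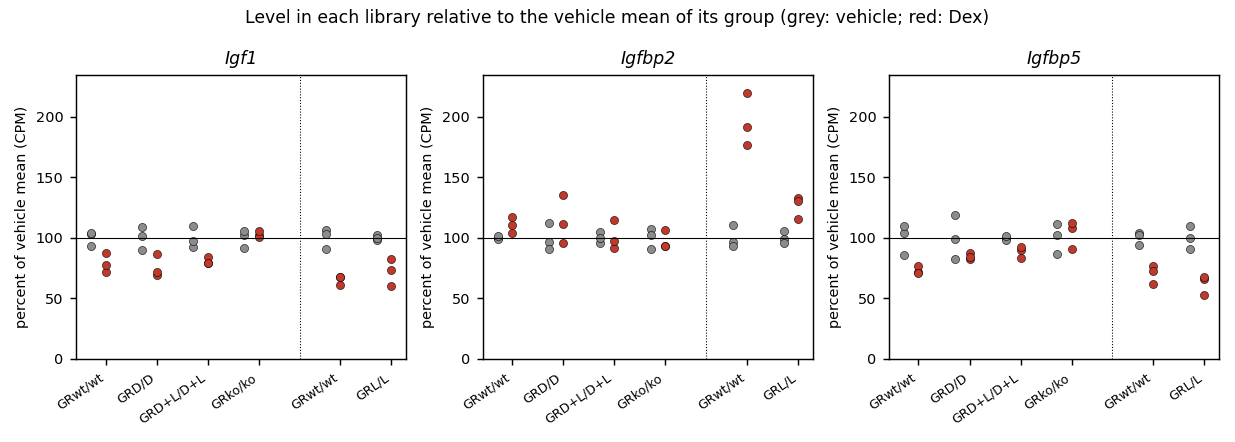
Level of Igf1, Igfbp2 and Igfbp5 in each library as percent of the vehicle mean of its genotype and run, with grey points for vehicle and red points for Dex, 3 libraries each; run 2 lies right of the dotted line. The Dex libraries of GRwt/wt in run 2 lie farthest above their vehicle libraries for Igfbp2. For Igf1, Dex libraries lie below all vehicle libraries in both runs of GRwt/wt, in GRD/D, in GRD+L/D+L and in GRL/L. For Igfbp5 they do so in the same groups except GRD/D, where they overlap. In GRko/ko they overlap for both genes.

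Igfbp5, a binding protein abundant in bone matrix, fell with Dex in both runs of GRwt/wt and in GRL/L. GRwt/wt cells of run 1 went from 261.9, 318.1 and 335.6 CPM to 215.7, 219.8 and 235.1 CPM (log2 fold change -0.45, SE 0.10, adjusted p = 0.00154), the one member that passed there. In run 2 it went from 328.5, 355.6 and 362.7 CPM to 214.6, 253.3 and 266.2 CPM (log2 fold change -0.51, SE 0.10, adjusted p = 9.8e-05; -0.43 without replicate 4). The 2 runs had similar vehicle and Dex levels of this gene, and no group overlapped its control. In GRL/L it went from 505.2, 551.8 and 607.3 CPM to 293.3, 367.0 and 375.2 CPM, a fall by 0.68 on the log2 scale (SE 0.10, adjusted p = 1.38e-06).

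The Dex change of Igfbp5 was -0.24 in GRD/D (SE 0.12, adjusted p = 0.192), -0.18 in GRD+L/D+L (SE 0.11, adjusted p = 0.518) and 0.05 in GRko/ko (SE 0.10, adjusted p = 0.987). The fall in GRD/D passed with no filter (adjusted p = 0.00308). With 1 library left out it ran from -0.37 to -0.09 (adjusted p from 0.052 to 0.689). In GRD+L/D+L the groups did not overlap, and the fall passed with the 2 groups alone (adjusted p = 0.0015). In the Dex change of Igfbp5, only the knockout differed from GRwt/wt of run 1 past the threshold, by 0.50 (SE 0.15, adjusted p = 0.0233), against 8.48% of all genes. Igf1r differed there by -0.37 and did not pass (adjusted p = 0.0726). It passed without replicate 2 of GRko/ko with Dex (-0.43) or replicate 3 of GRwt/wt with vehicle (-0.43). It also passed with no filter, with only the libraries compared, with a replicate block and with GRwt/wt of both runs together (adjusted p down to 0.000131). The call on Igfbp5 was lost when any of 7 single libraries was left out, with differences of 0.41 to 0.60 and adjusted p from 0.00582 to 0.0987 over all of them: replicates 1 and 3 of GRwt/wt with vehicle, replicates 1 and 3 of GRwt/wt with Dex, replicate 1 of GRko/ko with vehicle, and replicates 2 and 3 of GRko/ko with Dex. For GRD/D and GRD+L/D+L none of the 10 genes passed as a difference of the Dex change from GRwt/wt, against 3.29% and 3.23% of all genes; 0 of the 10 had an unadjusted p under 0.05 in edgeR in either, and DESeq2 called 0 in both. The difference for Igfbp5 was 0.21 in GRD/D (2 SE below and above: -0.10 to 0.52) and 0.27 in GRD+L/D+L (-0.03 to 0.57), where it passed with no filter and with only the libraries compared (lowest adjusted p 0.0343).

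Among the other binding proteins, Igfbp3, the main carrier of IGF in blood, passed with Dex in GRD/D. Its vehicle libraries had 12.2, 18.8 and 19.9 CPM and its Dex libraries 19.4, 30.6 and 34.1 CPM (log2 fold change 0.73, SE 0.22, adjusted p = 0.0225). The groups overlapped, and the call was lost when vehicle replicate 2 was left out (0.54, adjusted p = 0.174). It was also lost without replicates 2 (0.67, adjusted p = 0.103) or 3 (0.57, adjusted p = 0.148) of the Dex libraries, in a range from 0.00403 to 0.174 over all libraries left out. In the other genotypes its log2 fold change ran from -0.18 in GRD+L/D+L to 0.39 in GRko/ko and did not pass in the fit of all groups. It was 0.37 in GRwt/wt of run 1 (adjusted p = 0.321, and 0.776 in GRko/ko). With no filter the rise passed in GRko/ko (adjusted p = 5.3e-10) and in GRwt/wt of run 1. The latter also passed with the 2 groups alone (adjusted p down to 2.52e-05), as did the fall in GRD+L/D+L (adjusted p = 0.0294).

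Igfbp4, the substrate of pappalysin-1 and an inhibitor of IGF action, passed in GRL/L, where it fell from 409.8, 437.7 and 487.3 CPM to 293.1, 337.6 and 351.4 CPM without overlap (log2 fold change -0.44, SE 0.12, adjusted p = 0.00683). It was lost without replicate 1 of the vehicle libraries (-0.37, adjusted p = 0.0516) or of the Dex libraries (-0.37, adjusted p = 0.057), in a range from 0.00726 to 0.057. In GRwt/wt of run 2 its libraries did not overlap either, at 288.0, 296.9 and 303.6 CPM with vehicle and 236.9, 253.9 and 285.8 CPM with Dex, but its log2 fold change of -0.19 (SE 0.12) did not pass (adjusted p = 0.235). With no filter on low counts the fall of Igfbp4 passed in GRwt/wt of run 2 (adjusted p = 0.0022) and of run 1 (adjusted p = 0.0261). The difference of its Dex change between GRD/D and GRwt/wt passed there too (adjusted p = 0.00296). Igfbp6, which prefers IGF2, rose in GRwt/wt of run 2 from 50.1, 52.3 and 52.4 CPM to 60.5, 62.9 and 81.2 CPM (log2 fold change 0.40, SE 0.07, adjusted p = 4.44e-05). The value of 81.2 CPM was that of replicate 4, and without it the log2 fold change was 0.26. Igfbp7 did not pass with Dex in any genotype, with log2 fold changes from -0.03 to 0.13 in the fit of all groups. It passed without vehicle replicate 1 in GRD/D (0.19, adjusted p = 0.0313), without vehicle replicate 6 in GRwt/wt of run 2 (0.16, adjusted p = 0.0344) and, with only the 2 groups compared, in GRwt/wt of run 1 (adjusted p = 0.049, in a range up to 0.268). Igfbp7 shares 85 exon bases with Polr2b on the opposite strand, whose reads could not be told apart there without a strand setting.

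The second question was how the genotypes differed without Dex, each against GRwt/wt of its own run. In GRko/ko, 5 of the 10 genes were higher and 4 lower, against 24.4% and 21.3% of all genes tested, and the median log2 difference of the 10 was 1.15, against 0.01 over all genes. In GRD+L/D+L, 5 were higher and 2 lower, against 13.9% and 15.9%, with a median of 0.26 against -0.01. In GRD/D, 3 were higher and 1 lower, against 5.66% and 3.89%, with a median of -0.13 against 0.01. In GRL/L, 4 were higher and 1 lower, against 6.88% and 4.47%, with a median of 0.16 against 0.00. The 3 comparisons of run 1 share their GRwt/wt libraries.

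**Figure D5:**
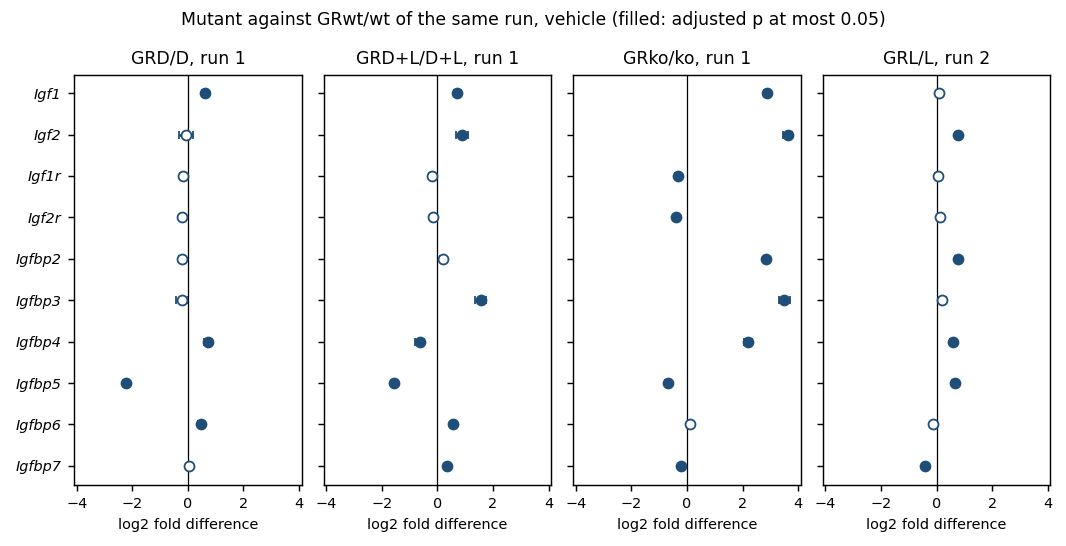
Log2 difference of each gene between vehicle-treated mutant cells and vehicle-treated GRwt/wt cells of the same run, with standard errors; filled points passed the threshold of 0.05 after adjustment. In GRko/ko, Igf1, Igf2, Igfbp2, Igfbp3 and Igfbp4 lie at 2.19 or more, and Igfbp5 lies left of 0 in the 3 mutants of run 1 and right of 0 in GRL/L.

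In GRko/ko both ligands were far above GRwt/wt of run 1, from which these cells also differed in sex. Igf1 was 82.2, 92.2 and 95.1 CPM against 11.4, 12.7 and 12.8 CPM in GRwt/wt, 7.29 times as high (log2 difference 2.87, SE 0.10, adjusted p = 1.75e-23). Igf2 was 49.1, 52.1 and 55.8 CPM against 3.96, 4.35 and 4.45 CPM, 12.3 times as high (log2 difference 3.62, SE 0.17, adjusted p = 1.06e-19). No other vehicle cells of run 1 came near these levels: GRD/D had 17.0 to 20.6 CPM of Igf1 and 2.58 to 5.29 CPM of Igf2. GRD+L/D+L had 18.7 to 22.3 CPM of Igf1 and 7.74 to 8.01 CPM of Igf2. In run 2, vehicle GRwt/wt cells had 86.6 to 101.9 CPM of Igf1, which overlapped GRko/ko, and 26.6 to 30.5 CPM of Igf2.

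Igf1 was also higher in GRD/D by 0.62 (SE 0.12, adjusted p = 0.000249; 0.55 and 0.69 without vehicle replicates 2 and 3) and in GRD+L/D+L by 0.72 (SE 0.12, adjusted p = 7.41e-06), and Igf2 in GRD+L/D+L by 0.89 (SE 0.23, adjusted p = 0.00275). In GRL/L, Igf1 lay with GRwt/wt of run 2 (log2 difference 0.07, SE 0.08, adjusted p = 0.621), while Igf2 was 44.5, 45.8 and 54.5 CPM against 26.6, 27.4 and 30.5 CPM (log2 difference 0.78, SE 0.12, adjusted p = 6.98e-06). Macrophages are a known source of IGF1, and the 20 macrophage genes moved between the genotypes: 19 were higher in GRD/D, 20 in GRko/ko and 19 in GRL/L, and 19 were lower in GRD+L/D+L, with median log2 differences of 1.497, 3.77, 1.00 and -3.02. The part of these cells in the differences of Igf1 and Igf2 was not tested.

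The receptors were lower in GRko/ko, with Igf1r at 159.6, 168.7 and 180.1 CPM against 200.7, 206.2 and 230.5 CPM (log2 difference -0.33, SE 0.09, adjusted p = 0.00353) and Igf2r at 562.5, 613.6 and 662.0 CPM against 775.7, 782.8 and 880.2 CPM (log2 difference -0.41, SE 0.07, adjusted p = 1.81e-05). Ligand and receptor levels therefore differed in opposite directions between these genotypes, without overlap of libraries. In the other mutants neither receptor passed in the fit of all groups, while with no filter on low counts both passed as lower in GRD/D and GRD+L/D+L (adjusted p from 0.00135 to 0.0139). Without replicate 3 of GRD/D vehicle, one of the libraries that stood far apart, Igf1r and Igf2r would have passed as lower in GRD/D too, at -0.34 and -0.29 (adjusted p = 0.00775 and 0.00681); with other libraries left out, the adjusted p of Igf2r reached 0.367.

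Of the binding proteins, 3 rose with the ligands in GRko/ko. Igfbp2 was 105.1, 118.0 and 124.0 CPM against 15.8, 15.9 and 16.2 CPM (log2 difference 2.86, SE 0.10, adjusted p = 1.7e-23). Igfbp3 was 190.7, 212.6 and 258.1 CPM against 18.2, 18.3 and 22.1 CPM, 11.3 times as high (log2 difference 3.50, SE 0.19, adjusted p = 8.91e-18). Igfbp4 was 124.8, 130.7 and 196.5 CPM against 30.3, 30.6 and 38.3 CPM (log2 difference 2.19, SE 0.15, adjusted p = 2.08e-15), the highest value being that of replicate 3. Cartilage genes stood apart in GRko/ko too, where 7 of 8 tested were higher and their sum was 186.5 to 585.9 CPM, highest in replicate 3, against 31.2 to 34.7 CPM in GRwt/wt; without replicate 3 the log2 difference of Igfbp4 was 1.95, and the part of cartilage cells was not tested. Of the 10 skeletal muscle genes, 7 were tested, and 6 of them were higher in GRko/ko, although their sum was lower, at 414.6 to 461.4 CPM against 677.0 to 782.2 CPM.

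Igfbp3 and Igfbp4 parted in the point mutants. In GRD+L/D+L, Igfbp3 was higher, at 54.4, 58.9 and 59.4 CPM (log2 difference 1.56, SE 0.20, adjusted p = 1.31e-07), and Igfbp4 lower, at 18.3, 22.4 and 22.5 CPM (log2 difference -0.64, SE 0.17, adjusted p = 0.0035). In GRD/D, Igfbp4 was higher, at 47.8, 54.0 and 61.9 CPM (log2 difference 0.73, SE 0.15, adjusted p = 0.00102; 0.82 and 0.62 without replicates 2 and 3), and Igfbp3 was at 12.2, 18.8 and 19.9 CPM, which overlapped GRwt/wt (adjusted p = 0.66). Of the 10 fibroblast genes, 7 were lower in GRD+L/D+L than in GRwt/wt; their part was not tested. GRL/L had higher Igfbp4 (log2 difference 0.59, SE 0.12, adjusted p = 0.000768) and Igfbp2 (0.76, SE 0.08, adjusted p = 3.69e-08) than GRwt/wt of run 2, while Igfbp3 did not pass (0.20, SE 0.15, adjusted p = 0.457). In GRL/L, 3 of 8 cartilage genes were higher, and 3 of 7 skeletal muscle and 3 of 6 epithelial genes were lower. These last 2 sums were low: muscle was 19.9 to 21.8 CPM against 29.9 to 31.0 in GRwt/wt. The epithelial sum was 5.44 to 5.98 CPM in GRL/L and spread from 7.2 to 53.3 CPM over the GRwt/wt libraries. The part of these cells was not tested.

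Igfbp5 was lower than in GRwt/wt in all 3 mutants of run 1. The GRwt/wt libraries had 261.9, 318.1 and 335.6 CPM. GRD/D had 53.2, 64.3 and 76.7 CPM, 4.71 times lower (log2 difference -2.24, SE 0.11, adjusted p = 9.12e-17), the smallest p-value of all genes in that comparison, and the log2 difference was -2.11 and -2.38 without replicates 2 and 3 of GRD/D. GRD+L/D+L had 101.2, 102.7 and 104.5 CPM (log2 difference -1.57, SE 0.11, adjusted p = 3.12e-14), and GRko/ko had 164.9, 193.6 and 211.4 CPM (log2 difference -0.68, SE 0.10, adjusted p = 7.28e-07). The 3 mutants did not overlap each other, with GRD/D lowest and GRko/ko highest. In GRL/L of run 2 it was higher than in GRwt/wt of that run, at 505.2, 551.8 and 607.3 CPM (log2 difference 0.67, SE 0.10, adjusted p = 6.98e-06). With Dex it fell in GRL/L to 293.3 to 375.2 CPM, which spans the GRwt/wt vehicle range of 328.5 to 362.7 CPM.

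Igfbp6 and Igfbp7 differed by small amounts. Igfbp6 was higher in GRD/D by 0.46 (SE 0.08, adjusted p = 0.000154; 0.46 and 0.51 without replicates 2 and 3) and in GRD+L/D+L by 0.56 (SE 0.08, adjusted p = 2.08e-06), and did not pass in GRko/ko (0.10) or GRL/L (-0.13). Igfbp7 was higher in GRD+L/D+L, at 931.2, 951.3 and 992.4 CPM against 756.2, 757.5 and 764.0 CPM in GRwt/wt (log2 difference 0.34, SE 0.05, adjusted p = 7.16e-06). It was lower in GRko/ko (log2 difference -0.21, SE 0.05, adjusted p = 0.00131) and in GRL/L (-0.41, SE 0.05, adjusted p = 1.18e-06).

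Of 27 other IGF pathway genes, 23 were tested, and Igfbp1, Igfals, Insrr and Irs4 fell below the filter. With Dex, 4 were higher and 3 lower in GRwt/wt of run 1 (all genes: 7.74% and 6.20%), 8 and 7 in GRwt/wt of run 2 (14.9% and 16.7%), and 6 and 5 in GRL/L (8.79% and 10.4%). In GRD/D, 1 was higher and 5 lower (5.63% and 6.24%), in GRD+L/D+L 1 and 4 (3.08% and 1.92%), and 0 in GRko/ko (0.00% and 0.00%), where none had an unadjusted p under 0.05 in edgeR. Irs2, a docking protein of the IGF and insulin receptors, rose in every genotype with a receptor: the log2 fold change was 1.16 in GRwt/wt of run 1, 1.29 in run 2, 0.89 in GRL/L, 0.61 in GRD+L/D+L and 0.48 in GRD/D, with adjusted p of at most 0.000388. Its rise was smaller than in GRwt/wt by 0.68 in GRD/D and by 0.54 in GRD+L/D+L, both of which passed (adjusted p = 0.000811 and 0.00751).

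Pik3r1 encodes the main regulatory subunit of PI3 kinase. It rose in GRwt/wt of run 1 from 48.8, 50.7 and 52.8 CPM to 74.5, 78.2 and 83.3 CPM (log2 fold change 0.63, SE 0.06, adjusted p = 1.21e-10) and fell in GRD/D from 57.2, 57.3 and 62.1 CPM to 45.0, 48.4 and 51.9 CPM (-0.28, SE 0.06, adjusted p = 0.00107), and the 2 changes differed (adjusted p = 7.36e-10). In GRD+L/D+L the means were 51.0 CPM with vehicle and 47.1 CPM with Dex, which did not pass (-0.11, adjusted p = 0.409), while the difference from GRwt/wt did (-0.75, adjusted p = 7.69e-08). It also rose in GRwt/wt of run 2 (0.89) and in GRL/L (0.85). Pik3r3, another regulatory subunit of PI3 kinase, fell in all 5, by 1.07 on the log2 scale in GRwt/wt of run 2.

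Stc1 encodes a stanniocalcin, a secreted inhibitor of pappalysins. It fell with Dex from 13.1, 14.9 and 15.4 CPM to 2.25, 3.01 and 3.31 CPM in GRwt/wt of run 1 (log2 fold change -2.35, SE 0.13, adjusted p = 2.08e-16), and by 1.82 in GRD/D and 1.53 in GRD+L/D+L. In run 2 the GRwt/wt libraries had 5.79, 6.27 and 7.02 CPM with vehicle and 4.99, 5.45 and 5.97 CPM with Dex, which overlapped (-0.21, adjusted p = 0.15), and the 2 runs differed in the Dex change by 2.13 (adjusted p = 4.36e-11). In GRL/L of the same run it fell from 5.34, 5.51 and 6.01 CPM to 3.85, 4.04 and 4.69 CPM without overlap (-0.42, SE 0.12, adjusted p = 0.00847), a change that did not differ detectably from that of GRwt/wt (-0.21, adjusted p = 0.665). Grb10, an adaptor that dampens insulin and IGF receptor signals, rose in GRwt/wt of run 2 (0.45, SE 0.04, adjusted p = 1.48e-10) and in GRL/L (0.30, SE 0.04, adjusted p = 1.9e-06).

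In vehicle cells, 7 of the 23 were higher and 8 lower in GRko/ko (all genes: 24.4% and 21.3%), 4 and 2 in GRD+L/D+L (13.9% and 15.9%), 2 and 0 in GRD/D (5.66% and 3.89%), and 5 and 0 in GRL/L (6.88% and 4.47%). The counts in GRD+L/D+L and in GRD/D are near the shares of all genes. H19, the imprinted noncoding RNA next to Igf2, was 1208, 1299 and 1835 CPM in GRko/ko against 279.8, 284.3 and 298.4 CPM in GRwt/wt (log2 difference 2.33, SE 0.13, adjusted p = 1.55e-17), and Igf2os, the antisense transcript of Igf2, rose with them (3.04, SE 0.22, adjusted p = 4.41e-14). Plagl1, a transcription factor of the same imprinted network, was also higher (0.86), and Insr, the insulin receptor, lower (-0.71). Replicate 3 of GRko/ko was highest for H19, as for Igfbp4 and the cartilage sum. GRD+L/D+L differed from GRwt/wt most clearly in Htra1, a protease that cuts binding proteins (-0.57), in Stc1 (-1.23) and in Grb10 (0.44).

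As a description, each of the 10 genes was matched with the genes of most similar log2 CPM over the 36 libraries after subtraction of the run means. Most similar to Igf1 and to Igf2 was Cxcl12 (Pearson's r of 0.97 and 0.98), to Igfbp2 Pid1 (0.98), to Igfbp4 Sirpa (0.98), to Igf1r Aff1 (0.95), to Igfbp3 Sft2d2 (0.95), to Igfbp7 Slc25a1 (0.93), to Igf2r Slmap (0.92), to Igfbp5 Itga4 (0.86) and to Igfbp6 Stard4 (0.83). The points share libraries, genotypes and runs, and the differences between groups carry much of these values.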

How the data were processed

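The table the authors deposited holds raw counts per gene, 1 column per library, without normalization. Per the submitters' processing notes, reads were mapped to mm10 with HISAT2 2.1.0 and counted with featureCounts 2.0.0; the methods name TruSeq libraries and a NextSeq and uniquely mapped reads. Annotation and strand setting are not given in the sources used here. Symbols were found for 55141 of 55487 identifiers. Groups came from the labels. Counts were tested in R 4.3.3 with edgeR 4.0.16 (TMM, filterByExpr, quasi-likelihood test, Benjamini-Hochberg over 15489 genes), with one term for each of the 12 groups over all 36 libraries; the threshold on adjusted p was 0.05. The biological coefficient of variation was 0.0513. The study used DESeq2 with run plus condition and a limit of 1 on the absolute log2 fold change; both were tried as alternatives (DESeq2 1.42.0), as were other normalization, filters (none, or at least 10 counts in every library), samples and a replicate block, and each library was left out in turn. p-values measure the spread between libraries, which may be technical in part or whole. Standard errors are the log2 fold change over the root of the F statistic. In vehicle cells, "higher" and "lower" are relative to GRwt/wt of the same run. All 10 genes are reported; other pathway genes are named where they passed, at most 4 for a comparison by lowest adjusted p, with their values in other comparisons beside them. The genes and lists were chosen with earlier results of these data known. Sex genes were added after the counts were seen. The fit was tested on simulated data. RefSeq promoter sequences of GRCm38.p6 were searched as letters. The experiment with a lower Dex dose was not analysed here. Figures were drawn with matplotlib 3.10.9.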

Additional observations from a re-analysis of the deposited data

Results flagged for a closer look

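Of the 10 genes, 3 Dex responses differed between groups by a test of the difference itself (edgeR's quasi-likelihood test of the interaction, Benjamini-Hochberg over all genes). Igfbp2 rose less in GRL/L than in GRwt/wt of run 2, by -0.63 on the log2 scale, as its 3 GRL/L vehicle libraries were above those of GRwt/wt and the Dex libraries overlapped. Igfbp2 rose more in GRwt/wt of run 2 than in GRwt/wt of run 1, by 0.82. Igfbp5 fell in GRwt/wt of run 1 and not detectably in GRko/ko, with a difference of 0.50 that rested on single libraries. Dixon's test for a single outlying library was not run in groups of 3.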

How the results depend on the processing

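No member's value turned from one side of 0 past the threshold to the other in any alternative, and over the single members 1037 of their values in other fits stayed on the same side of the threshold, 60 passed newly and 33 no longer passed; with 1 library left out, 1170 stayed, 14 passed newly and 16 no longer passed. The counts of members passing that moved by over 1.5 times, or from or to 0, were as follows, and the cause was not tested. With the limit of 1 on the absolute log2 fold change, the count was 0 with Dex in both runs of GRwt/wt, GRD/D and GRL/L, and in vehicle cells it was 1 in GRD/D, 2 in GRD+L/D+L, 5 in GRko/ko and 0 in GRL/L. With no filter on low counts, members passing with Dex were 5 in GRwt/wt of run 1, 1 in GRD+L/D+L, 1 in GRko/ko and 7 in GRL/L, and differences of the Dex change were 1 in GRD/D, 2 in GRD+L/D+L, 3 in GRko/ko, 2 in GRL/L and 4 between the runs. Smaller moves were to 3 in GRD/D and 7 in GRwt/wt of run 2 with Dex and to 6 in GRD/D, 9 in GRD+L/D+L and 6 in GRL/L in vehicle cells. With only the libraries compared, they were 5 in GRwt/wt of run 1, 1 in GRD/D, 3 in GRD+L/D+L and 7 in GRL/L with Dex (5 in GRwt/wt of run 2), 8 in vehicle GRL/L and 9 in vehicle GRD+L/D+L, and 2 in GRD+L/D+L and 3 in GRko/ko for the Dex change. With one run term and GRwt/wt of both runs together, they were 6 in GRwt/wt, 5 in vehicle GRD/D and 9 in vehicle GRD+L/D+L, and 1 in GRD+L/D+L, 4 in GRko/ko and 0 in GRL/L for the Dex change. DESeq2 called 2 members in GRwt/wt of run 1 and 2 between the runs. Leaving out 1 library gave 0 to 3 members with Dex in GRD/D, 5 to 7 in GRwt/wt of run 2 and 3 to 5 in GRL/L, 4 to 6 in vehicle GRD/D, and 0 to 1 in GRko/ko, 1 to 2 in GRL/L and 1 to 3 between the runs for the Dex change.

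Same-numbered vehicle and Dex libraries did not deviate together (correlations of -0.08 to 0.12), so the numbers were not taken as pairs. With a replicate block the members passing were 2 in GRko/ko for the Dex change and 5 in place of 4 with Dex in GRL/L, where Igf1r passed too, and no other count moved; vehicle cells of run 2 share no numbers. Depth limits Igf2 most, with 47 to 130 counts per library in GRwt/wt, GRD/D and GRD+L/D+L of run 1, and differences of the Dex change have standard errors of 0.08 to 0.35, which sets the size of difference that can be detected.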
